A study of Mus musculus with 6 samples.

Results

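The members described here are the mature miRNAs of 34 hairpins of the imprinted Dlk1-Dio3 locus, from miR-379 past miR-369 to miR-3072. They were chosen by name, taking every arm of these hairpins that the count table lists. This gave 68 members of the 1907 mature mouse miRNAs in the table, and hairpins such as miR-381 or miR-410 that lie between miR-379 and miR-3072 but were not named are treated as background. Of the 68 members, 65 had at least 1 count in the 6 libraries, and 46 passed the filter on low counts and were tested.

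Small RNA was sequenced from mouse embryonic stem cells (ESCs) of the C57BL/6 lines RB18 and RB20. R2i with LIF was the starting medium of both lines, and the 2i and serum cells had at least 10 passages in their own medium. Each line gave 1 library per medium, so that each of the 3 media had 2 libraries, and every library was made from pooled cultures grown independently. Serum cells grew in medium with 15% fetal bovine serum, without inhibitors. 2i cells grew without serum in N2B27 with PD0325901 at 1 µM, which blocks MEK, and CHIR99021 at 3 µM, which blocks GSK3. R2i cells grew in the same serum-free base with PD0325901 at 1 µM and SB431542, a blocker of TGF-β receptors, at 10 µM. All 3 media held 1000 U/ml LIF, and 2i and R2i are together called the ground state. The total counts were 1744187 (RB18) and 2243369 (RB20) in serum, followed by 2057602 and 3365676 in 2i and by 1041858 and 3593356 in R2i, so RB18 was sequenced less deeply in each medium. Because a library mixes its cultures, the tests measure the spread between the lines and libraries, and n is 2 libraries per medium.

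MicroRNAs are cut from hairpins in longer transcripts, and either arm of the hairpin (5p or 3p) can be loaded into Argonaute, where bases 2 to 8 of the mature strand, the seed, pair with target mRNAs. The Dlk1-Dio3 locus is imprinted: Dlk1, Rtl1 and Dio3 are expressed from the paternal chromosome, and the non-coding RNAs Meg3, Rian and Mirg, with the miRNAs, from the maternal one. The miRNAs of this cluster are found in placental mammals and are known mostly from the embryo, the placenta and the brain.

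The sequences of the 12 most abundant members are shown first, in their order along the chromosome, because most of the member counts come from them. They are RefSeq mature sequences (GRCm38.p6, chromosome 12), which were found for 64 of the 68 members, with the seed (bases 2 to 8) in capitals.
miR-379-5p: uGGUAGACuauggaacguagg
miR-411-5p: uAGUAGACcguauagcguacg
miR-380-3p: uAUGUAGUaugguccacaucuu
miR-323-3p: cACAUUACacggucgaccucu
miR-758-3p: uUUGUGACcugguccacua
miR-666-5p: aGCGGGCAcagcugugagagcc
miR-543-3p: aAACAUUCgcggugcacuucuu
miR-495-3p: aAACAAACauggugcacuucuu
miR-376b-3p: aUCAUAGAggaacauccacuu
miR-300-3p: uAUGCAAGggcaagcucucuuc
miR-134-5p: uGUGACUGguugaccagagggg
miR-369-3p: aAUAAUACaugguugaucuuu

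No seed is shared within this set of 12. Among the 64 members with a sequence there were 59 different seeds, and 5 of them occurred in 2 members each. Those with a tested member are shown next, since a shared seed can pair with the same target sites, together with miR-362-3p, a miRNA from the X chromosome with the seed of miR-329-3p, and with miR-654-3p, which stood apart in its counts.
miR-379-3p: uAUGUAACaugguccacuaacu
miR-411-3p: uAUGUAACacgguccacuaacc
miR-1193-5p: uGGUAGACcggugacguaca
miR-299a-3p: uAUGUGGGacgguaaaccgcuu
miR-299b-3p: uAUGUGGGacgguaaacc
miR-376b-5p: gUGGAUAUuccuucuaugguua
miR-376c-5p: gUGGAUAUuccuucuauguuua
miR-329-3p: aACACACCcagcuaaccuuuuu
miR-362-3p: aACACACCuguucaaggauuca
miR-654-3p: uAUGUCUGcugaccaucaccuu

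miR-379-3p and miR-411-3p share their seed and differ by the substitutions U10C and U22C, counted from the 5′ end, with the base of miR-379-3p first. miR-1193-5p has the seed of the abundant miR-379-5p. miR-376b-5p and miR-376c-5p differ by G19U, with the base of miR-376b-5p first, so their reads are separated by 1 base. The miR-299b arms lie on the opposite strand of the miR-299a hairpin, and their sequences are contained in those of miR-299a, so counts of these 2 hairpins are uncertain. The fifth shared seed belongs to miR-758-5p and miR-1197-5p, which had 3 counts and 0 counts in all.

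The hairpins span 38.9 kb on chromosome 12 in GENCODE M21 (GRCm38), from Mir379 at chr12:109709060-109709125 to Mir3072 at chr12:109747878-109747960. The stretch lies downstream of Meg3 (chr12:109541001-109571726) and Rian (chr12:109603940-109661716), and upstream of Dio3 (chr12:110279068-110281097). Of the 34 hairpins, 24 lie before the annotated start of Mirg (chr12:109729764-109749460) and the other 10 lie in it. Of these, 3 are inside an annotated exon, 5 overlap the edge of one and 2 are intronic.

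In each library the members made up a small share of all mature miRNA counts. In serum they held 380 counts in RB18, or 0.0218% of the library (95% Wilson interval 0.0197 to 0.0241), and 779 counts in RB20, or 0.0347% (0.0324 to 0.0373). In 2i they held 10836 counts in RB18, or 0.527% (0.517 to 0.537), and 16364 in RB20, or 0.486% (0.479 to 0.494). In R2i they held 5876 counts in RB18, or 0.564% (0.550 to 0.579), and 14774 in RB20, or 0.411% (0.405 to 0.418). Intervals and floors cover counting error only. The mean share was 0.0283% ± 0.00915 (SD, n = 2) in serum, 0.506% ± 0.0286 in 2i and 0.488% ± 0.108 in R2i, so that the serum and ground-state libraries did not overlap while the 2i and R2i libraries did. The mean share in the ground state was 17.6 times that in serum, or 25.03 times for RB18 and 12.9 times for RB20; this is a description, without a test. In these bulk libraries, more cells with these miRNAs and more copies per cell cannot be told apart.

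**Figure D1:**
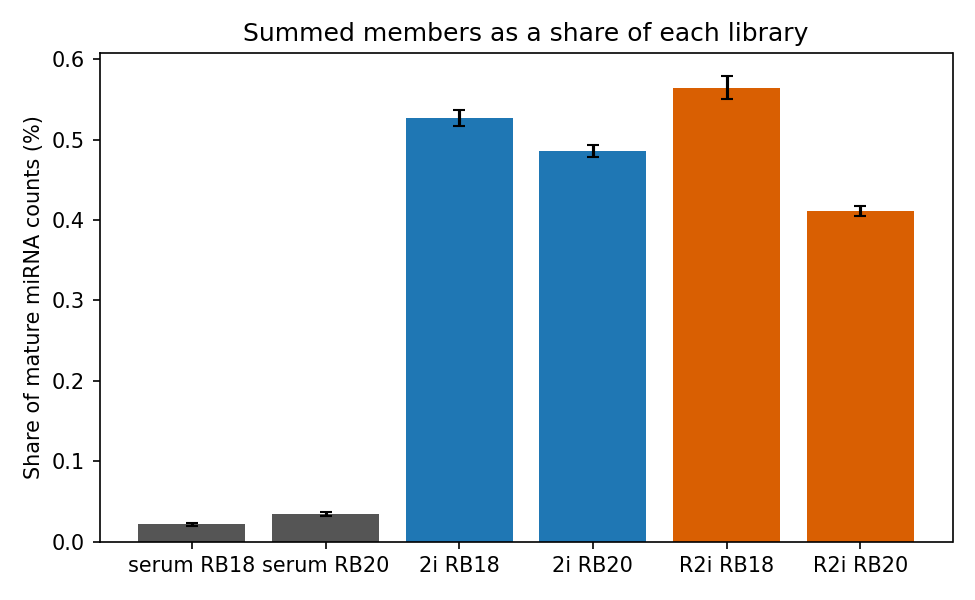
Summed counts of the 68 members as a share of all mature miRNA counts (%) in each of the 6 libraries, with 95% Wilson intervals of the counting error. Both serum libraries sit under 0.05% and the ground-state libraries between 0.411% and 0.564%.

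The number of members with at least 1 count was 39 and 46 in the RB18 and RB20 serum libraries, and between 59 and 60 in the 4 ground-state libraries. The counts were concentrated on few members. The 12 most abundant tested members took 68.7% and 69.8% of the member counts in serum, compared with 73.4% and 73.0% in 2i and with 72.9% and 72.4% in R2i, so their joint weight varied little between the media. miR-300-3p alone took between 12.1% (95% Wilson interval 9.20 to 15.8) in serum RB18 and 17.6% (16.9 to 18.3) in 2i RB18. miR-379-5p took 5.80% and 5.61% of the member counts in 2i, against 10.5% and 8.84% in R2i and 10.0% and 10.4% in serum.

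Levels are given as TMM-normalised CPM (counts scaled to the same library total) in RB18 and then RB20. At the 5′ end of the cluster, miR-379-5p was measured at 20.8 and 40.1 CPM in serum, against 305 and 280.2 in 2i and then 529 and 373 in R2i. miR-411-5p, from the next hairpin, had 13.1 and 28.7 CPM in serum, against 292 and 266 in 2i and then 325 and 276 in R2i. miR-380-3p had 13.7 and 26.8 CPM in serum, against 514 and 531 in 2i and then 424 and 343 in R2i. For these 3 members both lines were far higher in the ground state, and serum RB20 was above serum RB18. miR-323-3p had 3.28 and 7.43 CPM in serum, against 150.1 and 135 in 2i and then 133 and 103 in R2i. miR-758-3p had 12.04 and 18.3 CPM in serum, against 327 and 273 in 2i and then 253 and 198 in R2i. Each of the 5 levels was lower in serum than in any ground-state library, which held for 29.1% of all tested miRNAs.

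Further along, miR-666-5p had 3.83 and 3.96 CPM in serum, against 153 and 149 in 2i and then 91.7 and 93.2 in R2i. miR-543-3p had 11.5 and 11.9 CPM in serum, against 265 and 227 in 2i and then 199 and 200.1 in R2i. miR-495-3p had 8.21 and 9.42 CPM in serum, against 209 and 190.1 in 2i and then 167 and 138 in R2i. These 3 differed little between the lines in serum. miR-376b-3p belongs to the miR-376 group, known for A-to-I editing of its precursors in the brain, and had 13.1 and 14.9 CPM in serum, against 251 and 235 in 2i and then 232 and 129 in R2i. miR-300-3p, the most abundant member, had 25.2 and 62.4 CPM in serum, against 927 and 854 in 2i and then 758 and 713 in R2i. Its level in serum RB20 was the highest serum level of any member.

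The other 34 tested members had lower means over the media, with at most 10.4 and 11.9 CPM in serum and at most 125 in the ground state, so that some lay above the lowest of the 12 in a medium. The last 2 of the 12 lie within Mirg. miR-134-5p, known in neurons for limiting the growth of dendritic spines through Limk1, had 8.76 and 22.8 CPM in serum, against 183 and 190.4 in 2i and then 279 and 262 in R2i. miR-369-3p, known to bind AU-rich elements of mRNAs, had 9.31 and 22.8 CPM in serum, against 286 and 316 in 2i and then 285 and 230.2 in R2i. For both, serum RB20 lay well above serum RB18, while RB20 was the higher line in 2i by less and the lower one in R2i.

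**Figure D2:**
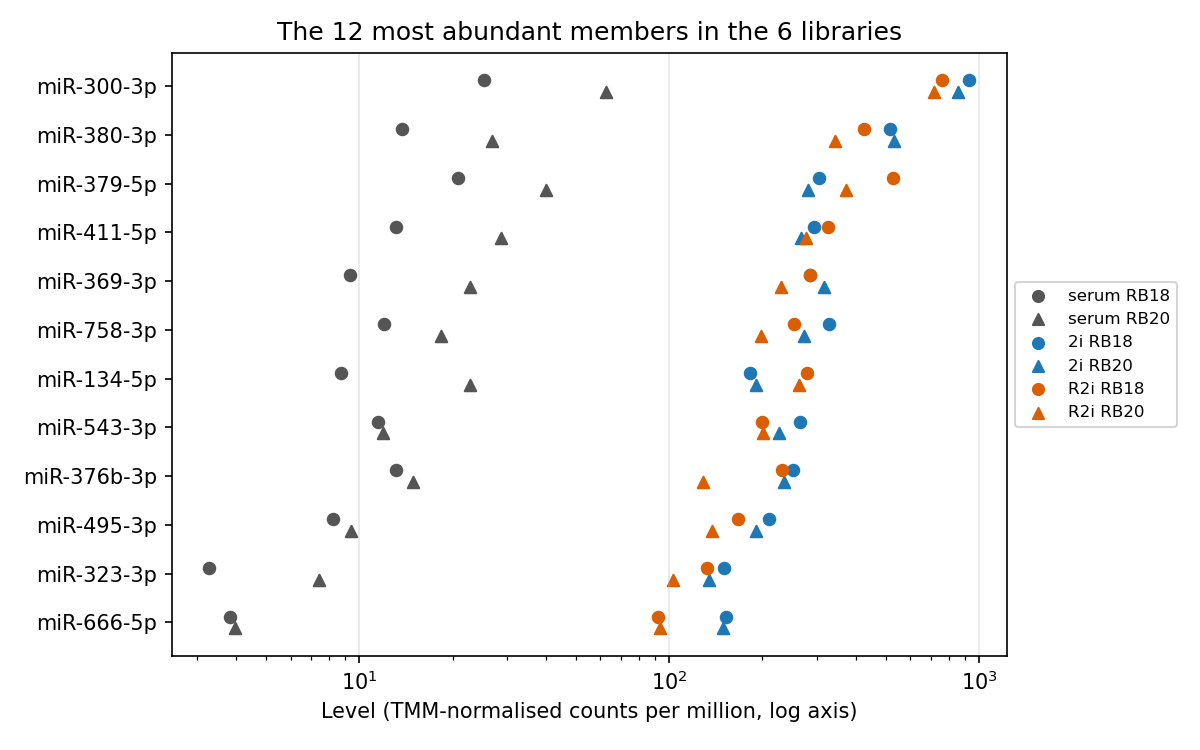
Levels of the 12 most abundant members in TMM-normalised CPM (log axis), with 1 point per library, coloured by medium and shaped by cell line. All serum points lie to the left of all ground-state points, from 3.28 to 62.4 against 91.7 to 927 CPM. Of all tested miRNAs, 29.1% had both serum libraries below all 4 ground-state libraries.

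To ask how the ground state differs from serum, the media were compared by edgeR's quasi-likelihood test over all 571 tested miRNAs, and calls needed a change beyond 2-fold and, after the Benjamini-Hochberg adjustment, a p under 0.01. Of the 46 tested members, 42 were called higher in 2i than in serum, where 16.8% of all tested miRNAs were. In R2i against serum, 43 were called higher (15.1% of all tested), and in the ground state, the mean of 2i and R2i, 44 were (17% of all tested). No member was called lower in any of the 3 comparisons, which share the serum libraries, where 17.3% (2i), 15.6% (R2i) and 20% (ground state) of all tested miRNAs were. All 4 ground-state libraries lay above both serum libraries for 45 of the 46, and for 29.1% of all tested miRNAs. These counts depend on the filter: 13 of the 46 reached its level in both serum libraries, 8 in 1 of them and 25 in neither, so these 25 were tested only through their ground-state counts and had to be higher there.

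The median log2 fold change of the 46 was 4.10 for 2i, 3.97 for R2i and 4.09 for both together, against -0.03, -0.07 and -0.02 for all tested miRNAs. It was 3.95 in the ground state with the members at 0 in serum set to their lower bound. Not affected by this are the 12 members with at least 10 counts in every library, all called in the 3 comparisons. Their log2 fold changes ran from 3.24 to 4.46 in the ground state with a median of 3.99, and 13.4% of the 402 miRNAs with such counts were called higher. When the TMM factors were computed without the miRNAs of the locus, the median of all tested miRNAs moved from -0.02 to 0.24 and that of the members from 4.09 to 4.37.

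The 12 most abundant members all rose in the ground state. They were chosen by their mean level over serum, 2i and R2i, which favours members that are high in the ground state. Against the same serum libraries, miR-379-5p rose by 3.26 in 2i and by 3.88 in R2i on the log2 scale, and miR-666-5p by 5.26 and 4.55. In the ground state, the smallest of these changes was that of miR-379-5p, with a log2 fold change of 3.57 (SE 0.36, adjusted p = 1.07e-04 by edgeR), and the largest that of miR-666-5p, with 4.90 (SE 0.27, adjusted p = 3.38e-05). miR-300-3p rose by 4.20 (SE 0.41, adjusted p = 9.42e-05) and miR-134-5p by 3.82 (SE 0.40, adjusted p = 1.26e-04). The order of the 12 depended on serum RB20. Without it the lowest was miR-376b-3p with 3.94, against 4.07 for miR-379-5p, and the highest miR-323-3p with 5.23, against 4.88 for miR-666-5p, 4.95 for miR-300-3p and 4.62 for miR-134-5p. Among members above 3 counts in a serum library, the largest changes after miR-666-5p were those of miR-376a-3p (4.64, SE 0.35) and miR-376b-5p (4.59, SE 0.47). Their size and order depended on single serum libraries: without serum RB18 they were 5.30 and 3.998, and without serum RB20 4.17 and 6.18. miR-376a-3p had 9 and 5 counts in serum, against 215 and 323 in 2i and then 112 and 260 in R2i. miR-376b-5p had 1 and 6 counts in serum, against 112 and 158 in 2i and then 52 and 123 in R2i. Both are arms of neighbouring miR-376 hairpins. The 6 members with larger fitted changes, miR-539-5p, miR-412-3p, miR-666-3p, miR-369-5p, miR-1197-3p and miR-377-3p, had at most 3 counts in each serum library. The pooled ratio of miR-666-3p to its 1 serum count was 86.9 (exact 95% interval 15.4 to 3448), that of miR-369-5p to 2 serum counts 55.6 (exact 95% interval 15.25 to 461) and that of miR-1197-3p to 2 serum counts 52.7 (exact 95% interval 14.45 to 437).

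Among the called members with a count in serum, the smallest changes were found for the miR-299a arms. miR-299a-5p had 9 and 3 counts in serum, against 34 and 48 in 2i and then 28 and 58 in R2i, a log2 fold change of 2.46 (SE 0.48, adjusted p = 0.00343 by edgeR); without the serum RB20 library it was 1.76 and not called, and without serum RB18 it was 3.61. miR-299a-3p had 9 and 13 counts in serum, against 80 and 73 in 2i and then 64 and 135 in R2i, a log2 fold change of 2.70 (SE 0.39). The arms of miR-299b had a total of 1 count each over the 6 libraries. miR-539-5p and miR-412-3p, named after their values were seen, were called in the ground state against serum with 0 counts in both serum libraries. Against a floor of 3 counts per serum library, they were at least 5.68-fold and at least 2.71-fold higher in the ground state. miR-412-3p was not called in R2i against serum (adjusted p = 0.0179 by edgeR). In the ground state it was not called with the cell line as a block.

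Of the tested members, miR-377-5p and miR-654-3p were not called in the ground state against serum. miR-377-5p had 0 and 4 counts in serum, against 13 and 25 in 2i and then 15 and 19 in R2i, with a log2 fold change of 2.82 (SE 0.86, adjusted p = 0.0265 by edgeR). It was called by DESeq2, with 3.01, and was 2.02 without serum RB18. Without serum RB20 its serum count was 0, and the fitted 7.19 is no bound. miR-654-3p was the only tested member whose serum and ground-state libraries overlapped. It had 0 counts in RB18 and 16 in RB20 in serum, against 0 and 19 in 2i and then 3 and 30 in R2i, with a log2 fold change of 0.16 (SE 1.18, adjusted p = 0.926 by edgeR). Single libraries decided this value, which was -0.69 without serum RB18 and -0.48 without R2i RB20. When 2i RB20 was left out the 2i count was 0, and the fitted -2.75 is no bound. Without serum RB20 the serum count was 0, and the fitted 6.44 is no bound.

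The counts of miR-654-3p differed more between the lines than between the media, which was looked at after its values were seen. Over the 3 media it had 3 counts in RB18 and 65 in RB20, a ratio of 11.4 per count sequenced (exact 95% interval 3.73 to 56.7, counting error only). In the model with the cell line as a block, RB20 against RB18 gave a log2 fold change of 3.46 (SE 0.90) with an unadjusted p of 0.00947 and an adjusted p of 0.647 by edgeR, so the difference did not pass the correction. No member was called in this comparison and 0% of all tested miRNAs were; at an unadjusted p under 0.05, miR-654-3p was the only member higher in RB20, where 4.38% of all tested were, and 0 members were lower (1.93% of all tested). The hairpins on either side were unlike it: Mir376c starts 500 bases before and Mir376b 240 bases after Mir654, and miR-376c-3p and miR-376b-3p were called higher in the ground state, with -0.31 between the lines for miR-376b-3p. miR-654-5p had 0 counts in every library.

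**Figure D3:**
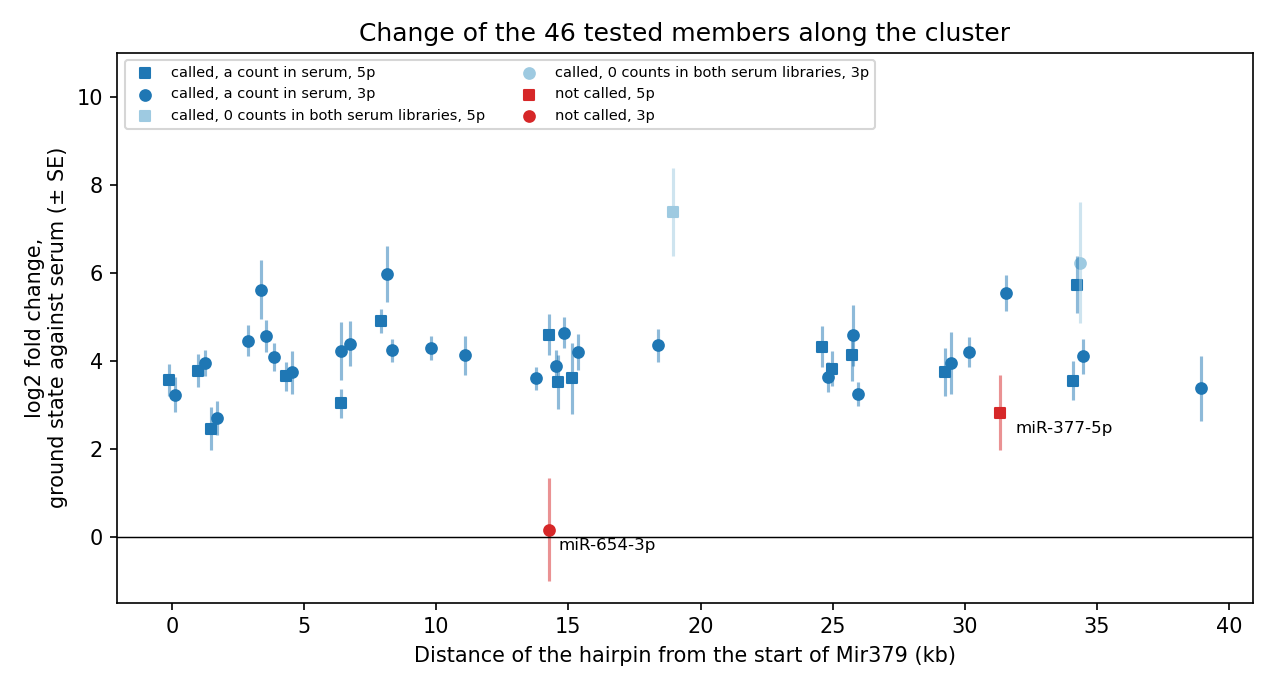
Log2 fold change of the 46 tested members in the ground state against serum (± SE) by the distance of their hairpin from the start of Mir379 (kb); squares are 5p arms and circles 3p arms. Points for members at 0 in serum are fitted values and no bounds, and miR-654-3p sits at 0.16 between neighbours near 4.

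Of the 12 members with at least 10 counts in every library, the 9 before Mirg had log2 fold changes from 3.57 to 4.46 (median 4.09), and the 3 within Mirg from 3.24 to 4.10 (median 3.82). The order of these medians depended on 1 library: without serum RB20 they were 4.35 and 4.62. Over all tested members, many of which had to be higher in the ground state to be tested, the medians were 4.10 for the 30 before Mirg and 4.03 for the 16 within it. Members share the libraries and are not replicates of a condition. Across the 46 members the Spearman correlation of the change with the distance from Mir379 was 0.14, and with the mean level 0.11; both are descriptions under the same limit.

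To ask whether GSK3 and TGF-β receptor inhibition, each combined with MEK inhibition, gave different member levels, 2i was compared with R2i. By edgeR 0 of the 46 members were called, where 0.35% of all tested miRNAs were, and DESeq2 and limma called 0 as well (2.98% and 0.35% of all tested). At an unadjusted p under 0.05, DESeq2 had 4 members (17.5% of all tested) and limma 2 (18.6% of all tested). By edgeR at an unadjusted p under 0.05, 4 members were higher in 2i (7.53% of all tested) and 0 were lower (10.7% of all tested). The 4, named after their values were seen, were miR-666-3p, miR-666-5p, miR-668-3p (1.32 higher on the log2 scale) and miR-412-5p (0.80 higher). miR-666-5p was 0.71 higher in 2i on the log2 scale (SE 0.21, adjusted p = 0.163) and miR-666-3p was 1.23 higher (SE 0.36, adjusted p = 0.163). Both arms of the miR-666 hairpin thus lay higher in both 2i libraries than in both R2i libraries, without passing the correction. miR-379-5p and miR-134-5p had the opposite sign, with -0.62 (SE 0.33) and -0.53 (SE 0.36). A count of 0 does not show that the media give equal levels.

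Whether the ground-state change differed between the lines was tested as an interaction of line and ground state, with 1 residual degree of freedom per miRNA. By edgeR 0 members were called (0% of all tested), and 0 by DESeq2 (0.876% of all tested). DESeq2 had 3 members at an unadjusted p under 0.05 (9.11% of all tested). By edgeR at an unadjusted p under 0.05, 13 members had a smaller change in RB20 (16.5% of all tested) and 0 a larger one (4.73% of all tested). The smallest adjusted p of a member was 0.124, for miR-300-3p, with a log2 fold change of 5.05 for RB18 and of 3.64 for RB20. The 12 members with at least 10 counts in every library ran from 3.41 to 5.09 in RB18 and from 3.01 to 4.16 in RB20, and each was smaller in RB20. Other settings called more miRNAs but no member: 19 of 571 with library totals, 27 of 1233 without the filter and 33 of 402 with at least 10 counts in every library. A lack of calls does not show equal changes. The higher member share in serum RB20 (0.0347% against 0.0218%) enters the difference between the lines in this change. The share of RB20 over that of RB18 was 1.59 in serum, 0.923 in 2i and 0.729 in R2i. What lay behind these ratios was not tested. The shift of all tested miRNAs was -0.15 in this model and -0.03 with TMM factors computed without the locus, where the median of the members was -1.06 and -0.94.

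**Figure D4:**
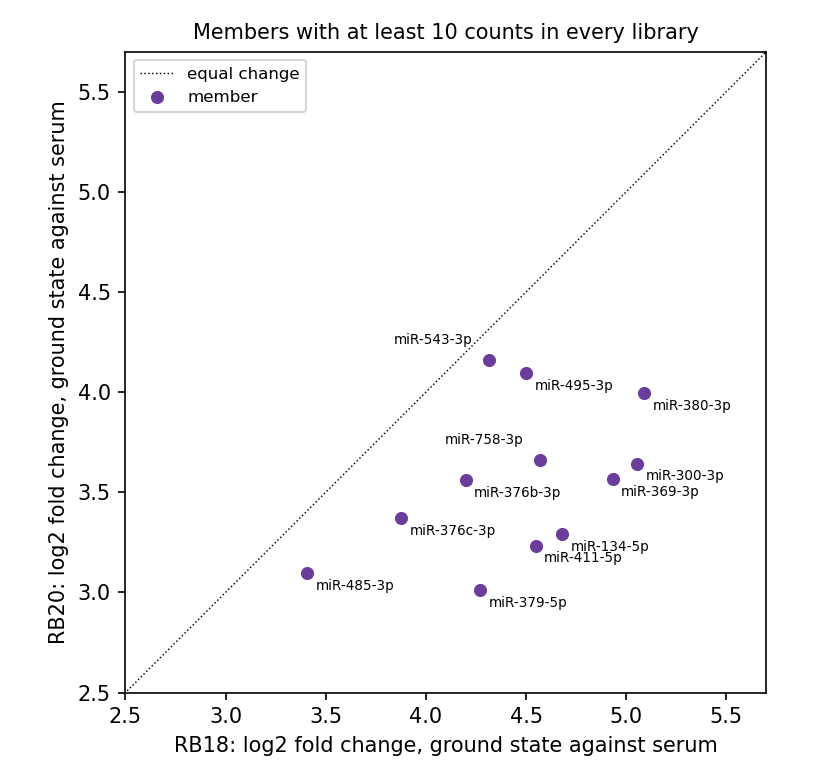
Log2 fold change in the ground state against serum in RB18 (x axis) and RB20 (y axis) for the 12 members with at least 10 counts in every library, with a dotted line of equal change. All 12 points lie under the line; the interaction called none of them.

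The arms of a hairpin are products of the same precursor, so their ratio is a measure apart from its level. Over the 4 ground-state libraries, the 3p arm had more counts in 25 of the 34 hairpins and the 5p arm in 8, and miR-299b was tied at 1 count each. Both arms were tested for 14 hairpins, of which 9 had more 3p and 5 more 5p. The most unequal was miR-300, with 8085 counts of the 3p and 69 of the 5p arm, so 99.2% of its counts were 3p (95% Wilson interval 98.9 to 99.3). miR-369 had 90.5% 3p (89.4 to 91.5) and miR-485 88.2% (86.2 to 89.9). The most equal was miR-329, with 51.0% 3p (48.0 to 54.1), followed by miR-154 with 67.3% (62.1 to 72.1) and miR-299a with 67.7% (63.6 to 71.6). The abundant arm began with U in 16 and with A in 11 of the 31 hairpins with a more abundant arm whose sequence was found, and Argonaute is known to favour these as a first base.

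In serum the arm shares were measured on far fewer counts. miR-300 had 98.9% 3p in serum (95.9 to 99.7), and miR-329 50% (33.2 to 66.9), both with intervals that hold the ground-state share. By edgeR's test of arm shift 0 of the 14 member hairpins were called (0% of the 178 hairpins with both arms tested). At an unadjusted p under 0.05, 1 was, against 14% of the 178: miR-377, named after its values were seen, had 4 counts of each arm in serum and 87.9% 3p in the ground state (adjusted p = 0.336). In 9 of the 14 the same arm led in all 6 libraries.

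**Figure D5:**
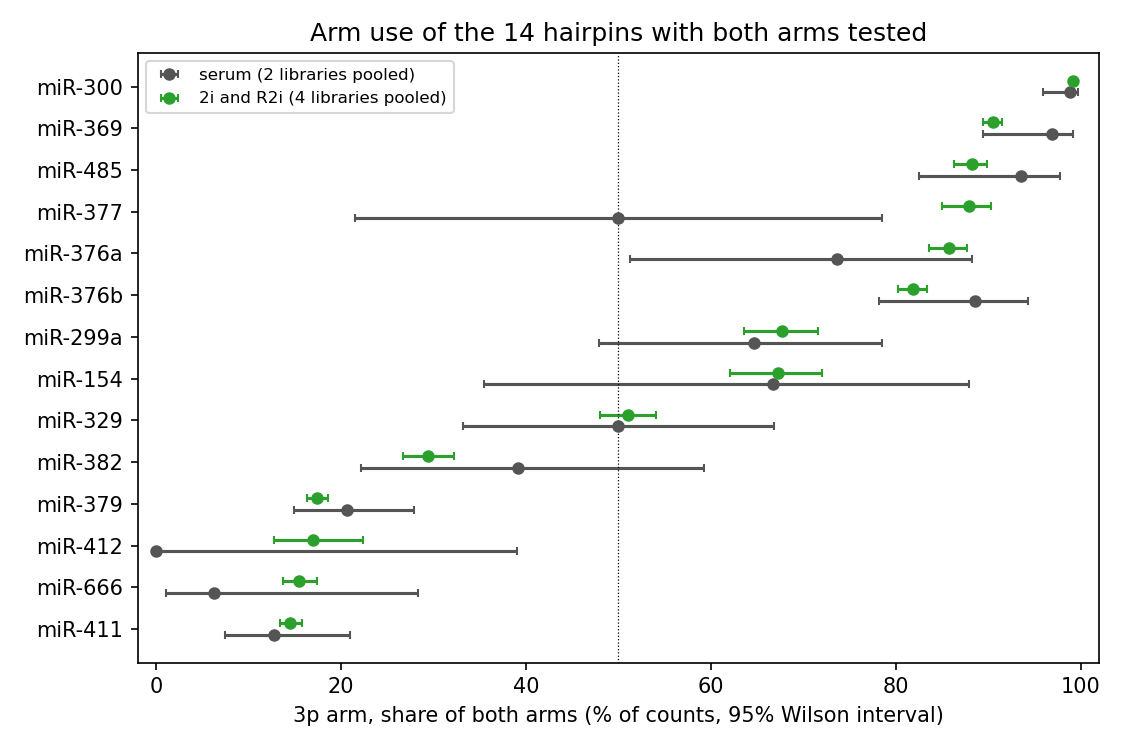
Share of the 3p arm among the counts of both arms (%) for the 14 hairpins with both arms tested, pooled over the 2 serum and the 4 ground-state libraries, with 95% Wilson intervals of the counting error. Shares in the ground state run from 14.5% for miR-411 to 99.2% for miR-300, with wide serum intervals.

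Seeds shared between members did not always go with equal levels. miR-379-3p had 3.83 and 11.9 CPM in serum and between 69.3 and 84.9 in the ground state, with a log2 fold change of 3.23 (SE 0.40). miR-411-3p, with the same seed, had 2.74 and 3.47 CPM in serum and between 44.9 and 54.0 in the ground state, with 3.95 (SE 0.30). In the other shared seeds with a tested member, a single miRNA held nearly all of the counts: miR-376b-5p lay between 35.2 and 54.4 CPM in the ground state, and miR-376c-5p at 0.858 or less.

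Of the members with a sequence, 11 share a seed with a listed miRNA outside the group. miR-329-3p, which takes part with miR-134 in the growth of dendrites, had 1.095 and 6.44 CPM in serum and between 42.9 and 61.4 in the ground state. miR-362-3p, with the same seed, had 59.1 and 55.5 CPM in serum and between 14.3 and 18.01 in the ground state. The former rose by 3.73 (SE 0.49, adjusted p = 4.01e-04 by edgeR) and the latter fell by 1.82 (SE 0.20, adjusted p = 1.54e-04) on the log2 scale. This pair was chosen after its values were seen. The other 3 tested partners outside the group were not called, with 2.73 for miR-370-5p, 0.79 for miR-1983 and -0.16 for miR-672-5p.

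The 22 members that were not tested had at most 17 counts in a library. Of these, 19 had a count somewhere, 15 of them with 0 counts in both serum libraries. Together these 19 held 4 counts in serum and 256 in the ground state. The 3 with the most counts were miR-380-5p, with 0 in serum and 43 in the ground state, miR-134-3p, with 1 and 39, and miR-667-5p, with 1 and 36. All 3 are the weaker arms of hairpins whose other arm was called. miR-1197-5p, miR-544-5p and miR-654-5p had 0 counts in every library.

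Other miRNAs of the locus were mostly called higher too. Of the tested arms of miR-541, miR-410, miR-381 and miR-409, which lie in the same stretch, 5 of 6 were called higher in the ground state (median log2 fold change 3.77). Of the miRNAs antisense to Rtl1, 9 of 10 were called higher (3.87), and of those near Meg3 and Rian, 9 of 14 (3.71). Among all tested miRNAs, 17% were called higher in this comparison. These lists passed the same filter, so some of their miRNAs also had to be higher to be tested. In 2i RB18 the most abundant arms of the 3 lists were miR-541-5p, miR-127-3p and miR-341-3p, with 7978, 19060 and 363 CPM, against 927 for miR-300-3p.

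The libraries had the markers of ESCs. The miRNAs of the miR-290 and miR-302 clusters took between 33.8% and 44.8% of the counts, with a median log2 fold change of 0.19 in the ground state and 4 of 22 tested called higher (miR-302a-3p, miR-302b-3p, miR-302c-3p and miR-367-3p), and miR-295-3p led with 171000 to 258100 CPM. Of all tested miRNAs, 17% were called higher and 20% lower in the ground state. Markers of other cell types were also counted, and some moved with the medium. For comparison, the members summed to 208 and 386 CPM in serum, against 5264 and 4994 in 2i and then 5038 and 4224 in R2i, so the blood, neuron, fibroblast and endoderm lists were each above the members in serum. The muscle list summed to 188 and 109 CPM in serum, against 152 and 163 in 2i and then 96.9 and 186 in R2i, with miR-133a-3p, miR-1a-3p and miR-208b-3p called lower in the ground state of 4 tested and 13 listed, 5 at 0 in every library, and miR-499-5p called higher. In both serum libraries miR-208b-3p was the most abundant of this list, and in each ground-state library miR-499-5p. The blood list summed to 3218 and 3277 CPM in serum, against 5197 and 2087 in 2i and then 1505 and 773 in R2i, with miR-451a called higher of 5 tested and 9 listed and miR-223 at 0 in every library. Its most abundant miRNA was miR-142a-5p in serum and 2i and miR-150-5p in R2i, and miR-142a-5p was called lower in R2i against serum (-2.43, SE 0.54, adjusted p = 0.00753 by edgeR). The neuron list summed to 1211 and 1054 CPM in serum, against 1118 and 967 in 2i and then 966 and 1098 in R2i, with miR-218-5p called higher of 7 tested and 9 listed. Its most abundant miRNA was miR-124-3p in serum RB18 and 2i RB18 and miR-128-3p in the other 4 libraries. The fibroblast and mesenchyme list, led by miR-143-3p, summed to 1479 and 2104 CPM in serum, against 3445 and 3758 in 2i and then 2511 and 2484 in R2i, with 0 of 7 tested and 10 listed called. The endoderm list, led by miR-192-5p, summed to 1415 and 2021 CPM in serum, against 1470.0 and 2040.0 in 2i and then 1679 and 2474 in R2i, with 0 of 3 tested and 9 listed called, and miR-122-3p, miR-215-3p and miR-375-5p at 0 in every library. Whether other cells had a part in the levels of the members was not tested.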

How the data were processed

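The authors trimmed and aligned the small RNA reads to the mouse genome and deposited whole-number counts per mature miRNA, without normalization. They also deposited log2 values, which matched log2(count / size factor + 1), with size factors from DESeq2, to within 0.02 for 100% of the values of its 1233 miRNAs. The submitters' processing notes name FastQC 0.11.5, cutadapt 1.3, Bowtie 1.1.2 and featureCounts 1.5, with build mm10.

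In R 4.3.3, edgeR 4.0.16 filtered the counts (filterByExpr, minimum count 10 and total 15), scaled them by TMM and fitted the 571 miRNAs left by quasi-likelihood, each medium having its own coefficient. The SE of a log2 fold change is its size over the root of the F statistic. The interaction added cell line and cell line by ground state, and arm shifts were tested with diffSpliceDGE. The comparisons of media, the interaction and the arm test were run on simulated counts with known changes. The cell-line block and the alternatives were not. Alternatives used DESeq2 1.42.0, limma 3.58.1 on the deposited log2 values, other scalings, filters and call limits, and fewer libraries. Summaries used Python 3.11.15 with scipy 1.17.1 and pandas 2.3.3, and plots matplotlib 3.10.9 and numpy 2.4.6.

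Libraries were paired by the cell line named in the labels; the differences between RB20 and RB18 correlated across miRNAs at 0.21 between serum and 2i, -0.128 between serum and R2i, and 0.248 between 2i and R2i. The lines were merged, as in the study, and the block is an alternative.

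The members and lists were chosen with earlier results of these data known. Named are the 12 tested members with the highest mean level, the 3 largest and 3 smallest changes above 3 counts on both sides, members not called, the 3 most unequal and 3 most equal arm ratios, shared seeds, and the 3 untested members with the most counts; exceptions are marked.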

Additional observations from a re-analysis of the deposited data

How the results depend on the processing

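The members called higher in the ground state numbered 44 of 46, where 211 of all 571 tested miRNAs were called either way. With DESeq2, library totals, TMM factors without the locus, other call limits, limma and the replicate block (42) they numbered 42 to 45 of 46. In these settings 195 to 249 of the 571 were called either way. With no filter they numbered 48 of 65, where 256 of 1233 miRNAs were called either way. The block gave 41 in 2i and 40 in R2i: it lost miR-412-3p in 2i and the ground state, miR-300-5p in R2i and the ground state, and miR-376a-5p and miR-668-3p in R2i, and changed no other call of a member in these comparisons; the block with the R2i lines exchanged, added after the data were seen, gave 40, 42 and 42 in 2i, R2i and the ground state. Requiring at least 10 counts in every library left 12 members to test, and all 12 were called in each of the 3 comparisons with serum, where the lower count comes from the smaller number tested. Leaving out 1 library left 46 to 49 members to test. Their median log2 fold change then ran from 3.94 to 4.58 in 2i, 3.81 to 4.525 in R2i and 3.90 to 4.62 in the ground state. For all tested miRNAs the median in the ground state ran from -0.07 to 0.07. Calls of 2i against R2i, the interaction and arm shifts were 0 in every alternative run. The fitted change of miR-654-3p ran from -2.75 to 6.44 with 1 library left out, but neither end is a bound. Its 2i count was 0 without 2i RB20 (-2.75), and its serum count was 0 without serum RB20 (6.44). It was also below 0 without serum RB18 (-0.69) or R2i RB20 (-0.48). With the 5 most abundant miRNAs left out of the library totals, the mean share was 0.0520% in serum, 1.00% in 2i and 0.915% in R2i; without the 2 most abundant members it was 0.367% in 2i and 0.370% in R2i. By single library the share ran from 0.0218% to 0.0347% in serum, 0.486% to 0.527% in 2i and 0.411% to 0.564% in R2i. Among the changes of named members, 273 recomputed values kept direction and call, and 3 turned direction (miR-654-3p, including the fitted value without 2i RB20 that is no bound). Another 3 moved past the limits (miR-377-5p) and 1 fell short of them (miR-299a-5p). Depth limits the 25 members under the filter level in both serum libraries, whose changes rest on few serum counts.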
